A study of Mus musculus with 9 samples.

Results

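Transcripts of Ccl5 and of 6 other genes for proteins that tumor cells can release to attract or maintain leukocytes, Ccl2, Ccl7, Cxcl1, Cxcl10, Cxcl16 and Csf1, were examined in B16 cells, a mouse melanoma cell line. These 7 genes were picked by symbol from the 22972 gene names in the deposited files, and Ccl5 was chosen by its higher FPKM in the libraries of cells treated with blebbistatin, so its values in that contrast are a description without a test. FPKM is a fragment count corrected for the length of the gene and for how many fragments were mapped in the library. Wild-type B16 cells were cultured on PDMS film, a flexible silicone, and RNA was taken on day 3. The libraries were 3 of untreated cells (CTL), 3 of cells under cyclic straining for 72 h (MS) and 3 of cells given 100 ng/mL blebbistatin, an inhibitor of non-muscle myosin II, for 72 h (Blebb.). Blebbistatin alone is named in the labels of the Blebb. group. In the study's methods, straining followed the addition of the inhibitors, and a figure legend names straining together with blebbistatin. The labels and the study thus differ, and straining of these cells is uncertain. The replicates are labelled as parallel experiments of 1 cell line and separate cultures are not stated, so p-values measure only the spread between these libraries, which may be technical.

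Chemokines are small secreted proteins that attract leukocytes along a gradient by binding G protein-coupled receptors, and they are named CC or CXC after the spacing of their conserved cysteines. CCL5 binds receptors that include CCR1 and CCR3 and draws T cells, monocytes and eosinophils, and tumor cells, T cells and platelets are known sources of it. The promoters of many chemokine genes respond to NF-kappaB, and Cxcl10 and Ccl5 also respond to interferon regulatory factors. CSF1 is not a chemokine but the growth factor that keeps macrophages alive through the receptor CSF1R.

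Of the 7 genes, 3 averaged 1 FPKM or more over the 9 libraries and entered the fit over all genes (Ccl5, Cxcl10 and Csf1), 2 were above 0 with a mean under 1 FPKM (Cxcl1 and Cxcl16), and 2 were listed at 0 in every library (Ccl2 and Ccl7). In all, 10109 genes were tested, with limma on log2(FPKM + 1). The number of reads behind an FPKM value is unknown. In the GENCODE M21 annotation of GRCm38, Ccl5 lies on the minus strand at chr11:83525778-83530518 and Ccl2 and Ccl7 on the plus strand at chr11:82035571-82037453 and chr11:82045712-82047525. Cxcl16 lies on the minus strand at chr11:70453983-70459984, Cxcl1 on the plus strand at chr5:90891241-90893115, Cxcl10 on the minus strand at chr5:92346638-92348889 and Csf1 on the minus strand at chr3:107741048-107760469. All 7 are protein-coding genes.

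Libraries did not sort by group. On the first principal component, which held 70.4% of the variance, CTL replicate 1 scored -42.1 and Blebb. replicate 2 scored -43.9, MS replicate 3 and Blebb. replicate 1 scored -10.0 and -7.29, and the other libraries scored between 6.07 and 35.8. The stress-response gene Ddit3, a transcription factor induced by unfolded proteins and amino acid shortage, was at 137, 99.1 and 131 FPKM in CTL replicate 1, MS replicate 3 and Blebb. replicate 2, and between 18.5 and 45.7 FPKM in the other 6 libraries. Ddit3 was chosen after its values were seen. The differences of Ccl5, Cxcl10 and Csf1 and the correlations between them are given with and without these 3 libraries. The markers of the labelled cell type were present, since 10 of 10 melanocytic genes reached a mean of 1 FPKM, with a summed level between 9597 and 15639 FPKM.

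Ccl5 was the most abundant of the 7 genes in every library. Its level was 11.1, 8.83 and 11.2 FPKM in CTL replicates 1 to 3, 8.80, 9.45 and 6.37 in MS, and 26.8, 24.0 and 19.0 in Blebb. The mean level was 10.4 ± 1.34 FPKM in CTL, 8.21 ± 1.62 in MS and 23.2 ± 3.96 in Blebb. (SD, n = 3 each). The Blebb. libraries were apart from all the others. The lowest of them, at 19.0 FPKM, was 1.69 times the highest of the remaining 6 libraries, at 11.2 FPKM, while CTL and MS overlapped. Among all genes of a library, ordered from the highest FPKM, Ccl5 took places 2661, 2915 and 3412 in Blebb. replicates 1 to 3 and reached place 6471 at its lowest, in MS replicate 3.

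**Figure D1:**
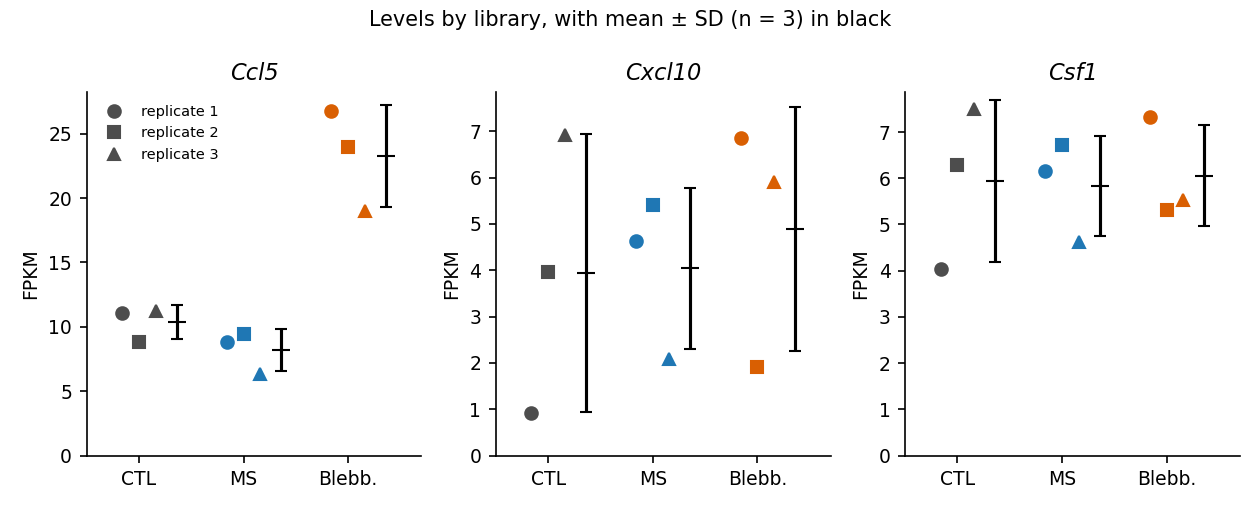
Levels of Ccl5, Cxcl10 and Csf1 in FPKM (vertical axis) in each library of CTL, MS and Blebb., with marker shape for the replicate number and the mean ± SD of 3 libraries in black. Ccl5 is at 19.0 to 26.8 FPKM in Blebb. and at 6.37 to 11.2 FPKM elsewhere, whereas the groups overlap for Cxcl10 and Csf1.

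Straining was compared with CTL to ask whether mechanical stimulation changed these transcripts, and this contrast was not used to choose the genes. For Ccl5, MS differed from CTL by -0.31 on the log2(FPKM + 1) scale (SE 0.19, 95% interval -0.74 to 0.11). This did not exceed the spread between libraries, with an adjusted p of 1.00 in limma over all genes tested. At an adjusted p under 0.05, 0 of the 10109 genes were called in MS against CTL (0%), and 16 genes (0.158%) had an unadjusted p under 0.05. None of the 3 genes tested from the set passed either threshold. Groups that did not overlap were seen for 3.17% of all genes and for 0 of these 3.

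Blebb. was set beside both other groups as a description of the values by which Ccl5 was selected. The difference in Ccl5 was 1.40 (SE 0.19) on the log2(FPKM + 1) scale against MS, with a mean FPKM 2.83 times as high. Against CTL the difference was 1.09 (SE 0.19), with a mean FPKM 2.24 times as high. Without the 3 libraries with high Ddit3 the differences were 1.22 and 1.10, and that of MS from CTL was -0.12. Ccl5 was the only one of the 3 tested genes of the set whose libraries did not overlap between the groups, in both comparisons. Over all genes, this was so for 3.73% in Blebb. against MS and for 2.08% in Blebb. against CTL. In the fit over all genes, 0 genes (0%) had an adjusted p under 0.05 in either comparison. Ccl5 was among the genes fitted, and its own p-values in these comparisons are not given. An unadjusted p under 0.05 was found for 126 genes (1.25%) in Blebb. against MS and for 9 (0.0890%) in Blebb. against CTL. The 2 comparisons share the Blebb. libraries and are not independent of each other.

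Cxcl10, which binds CXCR3 on activated T and NK cells, had no order by group. Its level was 0.916, 3.97 and 6.93 FPKM in CTL replicates 1 to 3, 4.63, 5.42 and 2.09 in MS, and 6.86, 1.90 and 5.90 in Blebb. Mean levels were 3.94 ± 3.01, 4.04 ± 1.74 and 4.89 ± 2.63 FPKM in CTL, MS and Blebb. (SD, n = 3 each). The spread within CTL was thus larger than any distance between group means. MS differed from CTL by 0.19 (SE 0.56, 95% interval -1.08 to 1.45) on the log2(FPKM + 1) scale, with an adjusted p of 1.00 in limma. This difference was -0.06 without the 3 libraries with high Ddit3, so its direction depended on them. Blebb. differed by 0.17 from MS and by 0.35 from CTL (SE 0.56 for both), smaller than the standard error, and by 0.29 and 0.23 without the 3 libraries. With 1 library left out these differences ranged from -0.15 (without MS replicate 3) to 0.61 (without Blebb. replicate 2) and from -0.22 (without CTL replicate 1) to 0.81 (without CTL replicate 3).

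Csf1 had similar mean levels in the 3 groups. Its level was 4.05, 6.28 and 7.49 FPKM in CTL replicates 1 to 3, 6.17, 6.71 and 4.63 in MS, and 7.32, 5.31 and 5.54 in Blebb. The group means of 5.94 ± 1.75, 5.84 ± 1.08 and 6.06 ± 1.10 FPKM in CTL, MS and Blebb. (SD, n = 3 each) lay within these spreads. On the log2(FPKM + 1) scale MS differed from CTL by -0.00085 (SE 0.23, 95% interval -0.51 to 0.51), with an adjusted p of 1.00 in limma. The interval still allows a change of 0.51 in either direction. The differences of Blebb. from MS and from CTL were 0.05 and 0.05 (SE 0.23). Without the 3 libraries with high Ddit3 all 3 differences were below 0, at -0.08 for MS against CTL, -0.012 for Blebb. against MS and -0.09 for Blebb. against CTL, so the direction of both Blebb. differences depended on them.

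**Figure D2:**
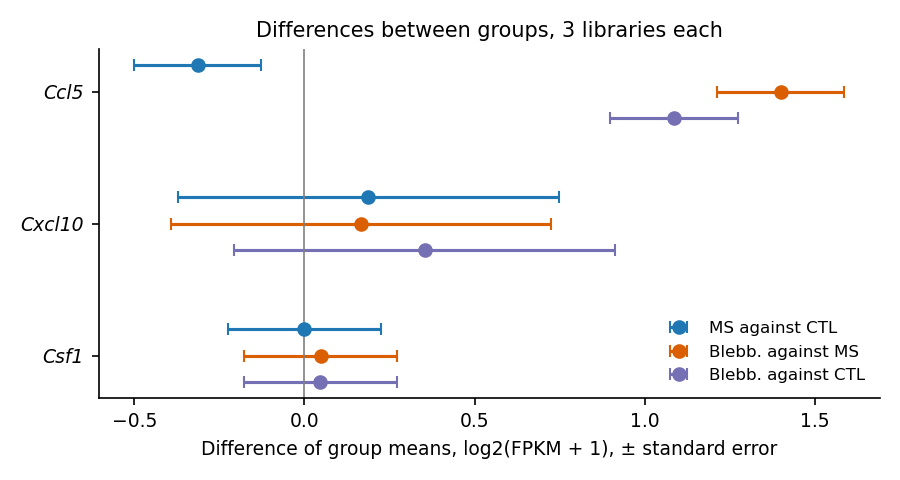
Difference of group means on the log2(FPKM + 1) scale (horizontal axis) for Ccl5, Cxcl10 and Csf1 in the 3 comparisons, with points for the difference and bars for ± 1 standard error. The Ccl5 points for Blebb. lie at 1.40 and 1.09, and the points of Cxcl10 and Csf1 lie between -0.00085 and 0.35.

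The proportion of Ccl5 to the other two was also compared. FPKM is scaled by gene length, so levels of different genes can be set beside each other. Ccl5 FPKM divided by Csf1 FPKM was 2.73, 1.41 and 1.499 in CTL, 1.43, 1.41 and 1.38 in MS, and 3.66, 4.51 and 3.43 in Blebb. The ratios in Blebb. were all above those of the other groups, of which the highest belonged to CTL replicate 1. This follows largely from the choice of Ccl5 by its level in Blebb., since Csf1 had similar means, and it was not tested. Ccl5 FPKM divided by Cxcl10 FPKM was 12.1, 2.22 and 1.62 in CTL, 1.90, 1.74 and 3.05 in MS, and 3.91, 12.6 and 3.21 in Blebb. This second ratio overlapped between groups, with the 2 highest values in CTL replicate 1 and Blebb. replicate 2, where Cxcl10 was low.

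The remaining 4 genes were near or at 0. Cxcl1, which attracts neutrophils through CXCR2, was listed at 0, 0.0225 and 0.0381 FPKM in CTL, 0.129, 0.0235 and 0.0213 in MS, and 0.0647, 0.0270 and 0 in Blebb. Cxcl16, a membrane-bound chemokine for CXCR6 that is released by shedding, was above 0 in MS replicate 1 (0.0123 FPKM), Blebb. replicate 2 (0.0115 FPKM) and Blebb. replicate 3 (0.0286 FPKM) and listed at 0 in the other 6 libraries. The groups overlapped for both genes. MS exceeded CTL by 0.051 for Cxcl1 and by 0.0059 for Cxcl16 on the log2(FPKM + 1) scale, and a two-sided exact permutation test gave p = 0.5 and p = 1, where 3 libraries against 3 cannot go below 0.1. Ccl2 and Ccl7, neighboring genes whose products attract monocytes through CCR2, were listed at 0 in all 9 libraries. A value listed at 0 can be a failed estimate, and without read counts no upper limit is given.

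The 3 genes with measurable levels were compared with each other over the libraries. Over the 9 libraries and on the log2(FPKM + 1) scale, Cxcl10 and Csf1 had a Pearson's r of 0.907 (exact permutation p = 0.00171, adjusted p = 0.00514 over 3 pairs) and a Spearman's rho of 0.867 (exact permutation p = 0.00451, adjusted p = 0.0135). Without the 2 libraries farthest from the median Cxcl10, CTL replicate 1 and Blebb. replicate 2, r was 0.844 (exact permutation p = 0.0393, adjusted p = 0.118). In the 6 libraries left without the 3 with high Ddit3, r was 0.549 and rho 0.600 (exact permutation adjusted p = 0.413 and 0.363). The relation was thus weaker and did not pass the threshold, and 6 libraries are too few to tell whether it rested on the others. Ccl5 had an r of 0.2002 with Cxcl10 and of 0.216 with Csf1 over the 9 libraries, with rho of 0.333 and 0.267 (exact permutation p between 0.385 and 0.606, adjusted p between 0.493 and 0.606). Neither passed the threshold without the 2 libraries farthest from the median Ccl5 (r of 0.349 and 0.0860) or without the 3 with high Ddit3 (r of 0.680 and 0.116). Blebb. libraries, by which Ccl5 was chosen, entered each of these correlations, so they do not show that Ccl5 varied separately.

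The same libraries marked the low values of Cxcl10 and Csf1 in each group. The lowest Cxcl10 and the lowest Csf1 were found in CTL replicate 1, MS replicate 3 and Blebb. replicate 2, where Ddit3 was highest in its group, whereas the lowest Ccl5 was found in CTL replicate 2, MS replicate 3 and Blebb. replicate 3. Cx3cl1, a membrane-bound chemokine for CX3CR1 on monocytes and NK cells, had its lowest library in the same place in each group (0.206, 0.249 and 0.284 FPKM, against 0.520 to 0.974 FPKM in the other 6 libraries). Genes of the interferon response did not move one way in these libraries. Isg15, a ubiquitin-like modifier, was at 10.8, 9.39 and 16.3 FPKM in the 3 libraries and between 4.65 and 8.14 FPKM in the others, and Usp18, which removes that modifier, was at 4.37, 3.41 and 5.96 FPKM against 0.966 to 1.58 FPKM. Ifit1, an antiviral RNA-binding protein, went the other way at 0.0614, 0.108 and 0.108 FPKM against 0.687 to 1.32 FPKM. Isg15, Usp18 and Ifit1 were chosen after their values were seen, and the part of these library differences in the levels of Cxcl10 and Csf1 was not tested.

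**Figure D3:**
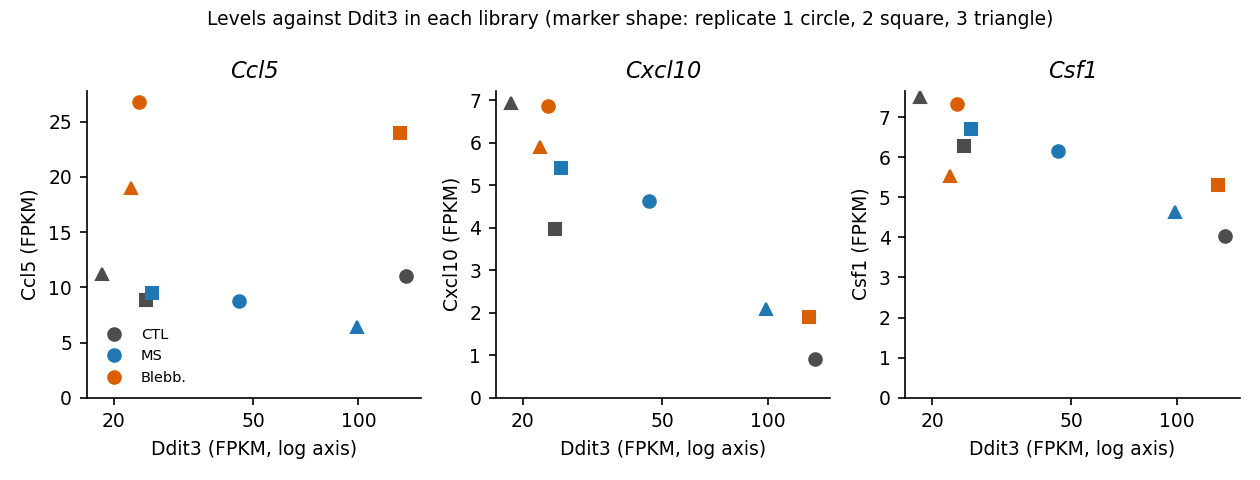
Levels of Ccl5, Cxcl10 and Csf1 in FPKM (vertical axis) against the level of the stress gene Ddit3 in FPKM (log axis) in the 9 libraries, with color for the group and shape for the replicate. The libraries with Ddit3 between 99.1 and 137 FPKM hold the lowest Cxcl10 and Csf1 of each group, and Ccl5 is at 24.0 FPKM in the one of them that is Blebb.

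Promoter sequences of the genes were matched in the RefSeq table of GRCm38.p6, which holds 250 bases before to 50 after the start of each gene, and 3 of the 7 genes were found in it. Ccl5, Ccl2, Ccl7 and Cxcl16 were not among them. The 3 genes found, Cxcl10, Csf1 and Cxcl1, are all shown. Each is printed 5′ to 3′ on the strand of its gene, at chr5:92348840-92349139 (minus strand) for Cxcl10, chr3:107760420-107760719 (minus strand) for Csf1 and chr5:90890995-90891294 (plus strand) for Cxcl1. Capitals mark the letters that match the kappaB consensus or, in the first capital stretch of Cxcl10, the interferon response element GAAANNGAAA, both searched on both strands.
Cxcl10: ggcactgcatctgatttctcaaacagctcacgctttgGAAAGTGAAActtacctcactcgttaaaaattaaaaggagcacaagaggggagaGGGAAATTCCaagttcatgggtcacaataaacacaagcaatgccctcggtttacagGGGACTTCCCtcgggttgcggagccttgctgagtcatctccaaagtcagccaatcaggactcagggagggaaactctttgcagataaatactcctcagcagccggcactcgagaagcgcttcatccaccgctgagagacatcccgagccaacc
Csf1: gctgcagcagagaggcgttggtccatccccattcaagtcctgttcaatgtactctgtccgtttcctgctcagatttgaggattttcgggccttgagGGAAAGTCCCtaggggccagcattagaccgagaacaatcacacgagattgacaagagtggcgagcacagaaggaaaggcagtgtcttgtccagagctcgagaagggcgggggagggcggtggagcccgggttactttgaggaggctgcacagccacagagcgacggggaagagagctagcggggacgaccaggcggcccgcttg
Cxcl1: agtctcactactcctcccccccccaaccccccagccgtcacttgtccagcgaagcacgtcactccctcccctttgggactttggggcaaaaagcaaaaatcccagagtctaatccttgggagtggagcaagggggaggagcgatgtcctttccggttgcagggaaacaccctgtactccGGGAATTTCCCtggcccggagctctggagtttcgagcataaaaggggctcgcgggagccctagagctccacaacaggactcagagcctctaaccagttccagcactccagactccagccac

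The Cxcl10 window held the interferon element 213 to 204 bases before the start and kappaB matches at 159 to 150 and at 103 to 94 bases before it. The Csf1 window held 1 kappaB match, on the opposite strand, at 154 to 145 bases before the start. In the Cxcl1 window the kappaB consensus was met on both strands, at 71 to 62 and 70 to 61 bases before the start, and these matches overlap. Among 32544 promoters of the same length, 1474 (4.53%) held the kappaB consensus and 1122 (3.45%) held the interferon element. Cxcl1, with a kappaB match, was near 0 in all libraries, and Cxcl10 and Csf1 were not. These letters are a description of the windows and not of binding.

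Few other chemokines had a measurable level. Of 38 ligands listed with the members included, 37 were in the files, 23 were at 0 in all libraries, 10 were above 0 with a mean under 1 FPKM and 4 reached it. Besides Ccl5 and Cxcl10, these were Ccl25, a chemokine of thymus and gut for CCR9, at 1.92 to 3.58 FPKM, and Ccl27a, a skin chemokine for CCR10, at 3.03 to 5.32 FPKM. Ccl27a has near-identical copies in the mouse genome and its value is uncertain for this reason. Ccl25 differed by -0.26 (SE 0.21) and Ccl27a by 0.20 (SE 0.18) in Blebb. against MS on the log2(FPKM + 1) scale, and neither passed the test. Ccl28, Ccl6, Cxcl9 and Pf4 did not exceed 0.153 FPKM in any library, and Cxcl2 was listed at 0.

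Most receptors were listed at 0 or near it. Of 24 receptors for chemokines and CSF1, 14 were listed at 0 in all libraries, among them Ccr1, a receptor of CCL5, and Ccr2, Cxcr2 and Cxcr6. Csf1r was at or under 0.0114 FPKM. The one receptor that reached a mean of 1 FPKM, the scavenging receptor Ackr3, was at 0.709 to 1.90 FPKM and differed by 0.0057 in MS against CTL, by -0.22 in Blebb. against MS and by -0.21 in Blebb. against CTL on the log2(FPKM + 1) scale (SE 0.22 for each). Cxcr3, the receptor of CXCL10, was under the minimum, at 1.04, 0.846 and 0.456 FPKM in CTL, 0.308, 0.453 and 0.424 in MS, and 0.917, 1.76 and 1.19 in Blebb. The MS libraries were below all the others, though the highest of them, at 0.453 FPKM, nearly met CTL replicate 3 at 0.456 FPKM. Over all tested genes, groups did not overlap for 3.17% in MS against CTL and for 3.73% in Blebb. against MS. The exact permutation p of 0.1 for MS against CTL and for Blebb. against MS is the smallest that 3 against 3 libraries allow. For Blebb. against CTL, where the groups overlapped, the exact permutation p was 0.2.

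Genes that act upstream of chemokines, that hold or shed them, or that share their functions were counted from lists. Without the 7 members, the lists held 142 genes, 63 of which were tested, and 0 of these were called or had an unadjusted p under 0.05 in any of the 3 comparisons. In the NF-kappaB list, 13 of 18 genes were tested, and the list median of the log2 differences was -0.086 in MS against CTL, 0.10 in Blebb. against MS and 0.019 in Blebb. against CTL, beside -0.0018, -0.0059 and -0.013 over all genes. The genes of the list lay between -0.43 and 0.24 in Blebb. against MS, the lowest being Chuk, a kinase that activates the pathway, at -0.43 (SE 0.26), which was named after its values were seen. Rela, the activating subunit of NF-kappaB, was at 30.1 to 40.8 FPKM and Nfkb2, the precursor of the p52 subunit, at 18.0 to 29.1 FPKM, with differences of 0.15 (SE 0.14) and 0.24 (SE 0.17) in Blebb. against MS on the log2(FPKM + 1) scale. Nfkbib and Tnip1, both inhibitors of the pathway, differed by 0.10 (SE 0.15) and 0.20 (SE 0.17) in the same comparison. None of these genes passed the test.

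The interferon list gave similar counts. Of 32 regulators and targets, 22 were tested, with a list median of 0.032 in MS against CTL, 0.010 in Blebb. against MS and 0.0037 in Blebb. against CTL on the log2 scale. Irf3, a transcription factor that drives Ccl5 and Cxcl10 after viral sensing, was at 15.1 to 23.3 FPKM, and the interferon receptor genes Ifnar1, Ifnar2 and Ifngr2 were at 14.8 to 18.9, 17.0 to 30.8 and 18.7 to 30.2 FPKM. Mavs, the mitochondrial adaptor of RNA sensing, had lower levels in all MS libraries (13.8 to 15.8 FPKM) than in all CTL libraries (15.9 to 18.4 FPKM), with a difference of -0.16 (SE 0.13) that did not pass the test. It was 1 of the 22 tested genes of the list without overlap in this comparison, beside 3.17% of all genes.

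All 10 sheddases and glycosaminoglycan genes were tested. Adam10 and Adam17, proteases that can release CXCL16 and CX3CL1, were at 4.79 to 17.2 and 3.00 to 8.62 FPKM, although Cxcl16 itself was near 0. They differed by -0.55 (SE 0.43) and -0.52 (SE 0.38) in Blebb. against MS on the log2(FPKM + 1) scale. Sdc1, a heparan sulfate proteoglycan of the kind to which CCL5 binds, was at 16.2, 31.8 and 32.5 FPKM in CTL, 28.8, 35.7 and 17.3 in MS, and 38.4, 18.9 and 33.2 in Blebb. Its lowest libraries in each group were those with high Ddit3. Sdc3, Ext2 and Ndst1, the last 2 being enzymes of heparan sulfate synthesis, differed by 0.19 to 0.21 in Blebb. against MS (SE 0.15 to 0.24), and the related enzyme Ndst2 was the one gene of this list whose MS and CTL libraries did not overlap (4.75 to 6.25 against 6.36 to 6.60 FPKM). It differed by -0.19 (SE 0.16) and did not pass the test, and 1 of 10 genes stands beside the 3.17% of all genes without overlap.

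Of 14 other cytokines and growth factors, 3 were tested. Mif, a cytokine that inhibits macrophage migration, was at 1720 to 2305 FPKM, among the 26 highest genes of every library, and differed by 0.077 (SE 0.16) in Blebb. against MS on the log2(FPKM + 1) scale. Tgfb1, an immunosuppressive cytokine, was at 17.3, 8.12 and 5.95 FPKM in CTL, 5.27, 6.65 and 12.8 in MS, and 10.1, 18.6 and 6.82 in Blebb., with its highest level in each group in the library with high Ddit3. Il18 was at 1.01 to 3.09 FPKM, and Spp1 (osteopontin) had a mean under 1 FPKM. All 12 genes of the stress list were tested, and its median was 0.17 in Blebb. against MS and 0.13 in Blebb. against CTL. Its most abundant genes, Phgdh, Asns, Atf4 and Psat1, which serve serine and asparagine synthesis and the response to amino acid shortage, differed by 0.082 to 0.37 in Blebb. against MS (SE 0.15 to 0.46).

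**Figure D4:**
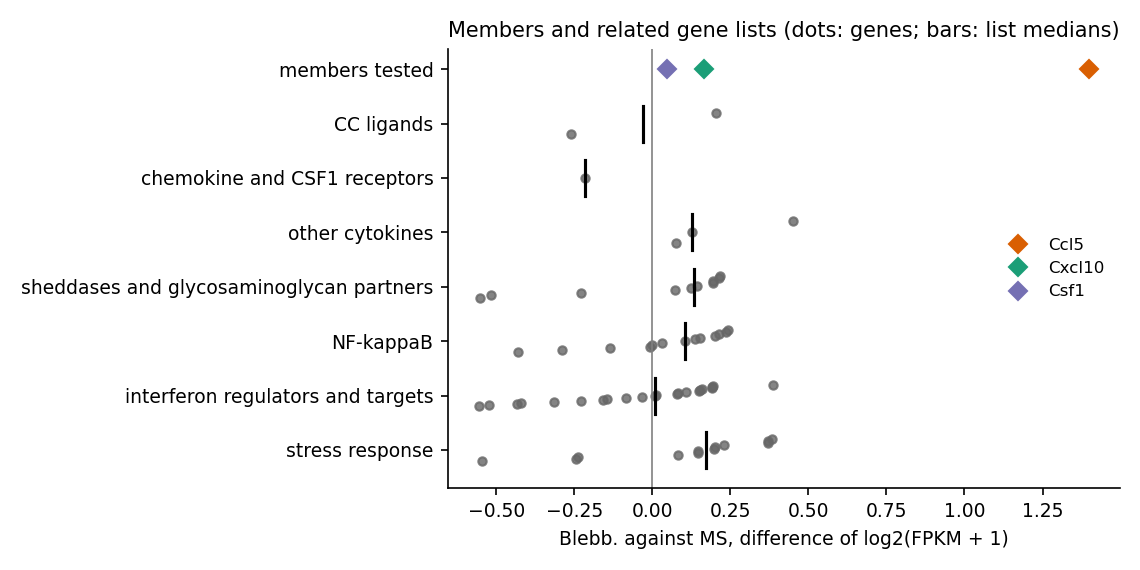
Difference between Blebb. and MS on the log2(FPKM + 1) scale (horizontal axis) for Ccl5, Cxcl10 and Csf1 (diamonds) and for the tested genes of each list (dots, with a bar at the list median). Ccl5, chosen by its level in Blebb., lies at 1.40, and every list gene lies between -0.56 and 0.45.

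In bulk RNA, more cells of a type and more RNA per cell cannot be told apart, so markers of cells known as sources of these proteins were also counted. Of 8 T and NK cell markers, 6 were at 0 in all libraries and the summed level was at most 0.0114 FPKM. Of 10 macrophage markers, Ptprc, Tyrobp and Aif1 were at 0 in all libraries, and the summed level was 3.01 to 3.97 FPKM in CTL, 3.27 to 5.21 in MS and 3.33 to 4.31 in Blebb., with Cd68 as the one gene that reached a mean of 1 FPKM. Fibroblast, keratinocyte and endothelial markers summed to at most 0.567, 0.0314 and 0.0615 FPKM, with 2 of 6, 4 of 6 and 3 of 5 genes at 0 in all libraries. None of these summed levels was higher in all Blebb. libraries than in all the others.

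The genes most like Ccl5 were sought by Pearson's r on the log2(FPKM + 1) scale over the 9 libraries, among 10108 other tested genes, as a description that follows largely from the level in the Blebb. libraries. The 5 with the highest r were Bcl2l1 (r = 0.937), Zfp593 (0.927), Ankrd27 (0.898), Tuft1 (0.895) and Rgs19 (0.894), and 59 genes had an r above 0.8. Bcl2l1, which encodes the survival protein BCL-XL, was at 30.4, 30.9 and 30.9 FPKM in CTL, 25.9, 31.5 and 25.2 in MS, and 40.7, 37.1 and 36.2 in Blebb. Its Blebb. libraries were above all the others, by a smaller factor than for Ccl5. The 5 with the lowest r were Adam23 (-0.870), Ppfibp2 (-0.858), Prxl2a (-0.852), Zmpste24 (-0.842) and Ndufa1 (-0.835), and 19 genes had an r below -0.8. Without Blebb. replicates 1 and 2, the libraries farthest from the median Ccl5, r was between 0.760 (Rgs19) and 0.934 (Ankrd27) for the 5 highest genes. Of the 5 lowest, Adam23 had an r of -0.908 without them, and the other 4 lay between -0.634 (Ppfibp2) and -0.488 (Ndufa1). Since 1 Blebb. library stayed in and the genes were picked by r over all 9 libraries, these values are no separate check.

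The genes around Ccl5 on the chromosome were also compared. Only Ccl5 was chosen by its level in Blebb., so a larger difference for it than for its neighbors follows largely from that choice. Within 500 kb on either side of its start, a window set after the values were seen, 24 protein-coding genes were compared, of which 6 were tested and 8 were at 0 in all libraries. The neighboring CC chemokine genes Ccl3 and Ccl4 were listed at 0 in all libraries, Ccl6 and Ccl9 did not exceed 0.0268 FPKM, and Heatr9, next to Ccl5, was also at 0. The 6 tested neighbors (Synrg, Ddx52, Heatr6, Taf15, Ap2b1 and Slfn3) differed by -0.58 to 0.11 in Blebb. against MS, with a median of -0.27, and by -0.31 to 0.011 in Blebb. against CTL, with a median of -0.15, on the log2(FPKM + 1) scale. None of the 6 was called or had an unadjusted p under 0.05 in limma in either comparison. Among the neighbors under the minimum, 1700020L24Rik, named after its values were seen, had Blebb. libraries above all the others, as Ccl5 did. Its level was 0.223, 0.201 and 0.136 FPKM in CTL, 0.120, 0.208 and 0.233 in MS, and 0.384, 0.517 and 0.285 in Blebb., and it was not tested.

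**Figure D5:**
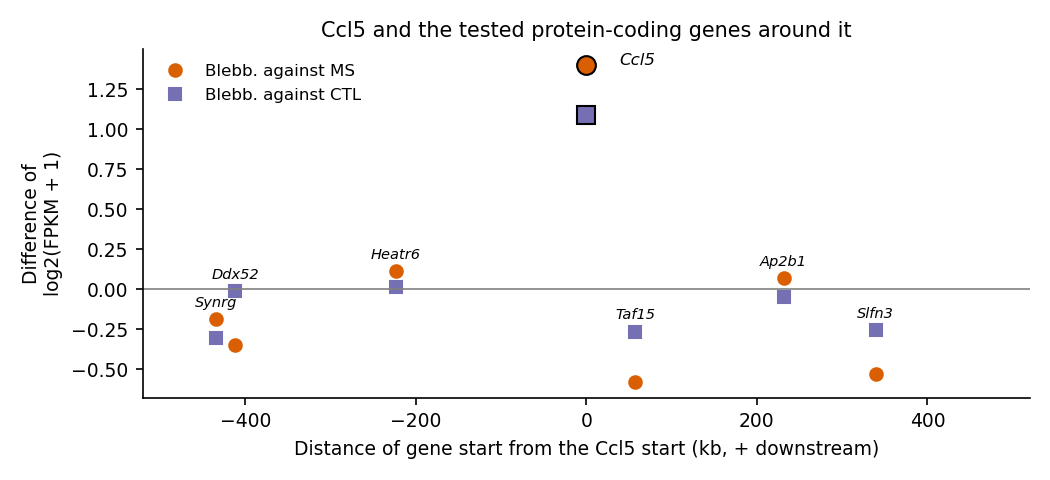
Difference on the log2(FPKM + 1) scale (vertical axis) of Ccl5 and the 6 tested protein-coding genes around it, against the distance of each gene start from the Ccl5 start in kb, positive in the direction of Ccl5 transcription. Circles give Blebb. against MS and squares Blebb. against CTL. Ccl5, at 1.40 and 1.09, was chosen by its level in Blebb., and the tested neighbors reach at most 0.11 (those with a mean under 1 FPKM are not drawn).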

How the data were processed

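RNA from 9 samples of B16 cells was sequenced on an Illumina platform after TRIzol extraction and SMARTer library preparation. The authors deposited 1 FPKM value per gene and library, already scaled by gene length and mapped fragments. Aligner, counting program and annotation are not given in the sources used here, and the submitters' processing notes name GRCm38 and mm10. The CTL replicate 1 column is headed by a sample name and was read as FPKM. Read depth is unknown, and the spread between replicates sets the precision. FPKM columns summed to 439939 to 484093.

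Values were transformed as log2(FPKM + 1), which understates changes of low genes, and the 10109 genes averaging 1 FPKM or more were fitted over all 3 groups in limma 3.58.1 under R 4.3.3 (trend, two-sided, Benjamini-Hochberg, threshold 0.05). The fit was tested on simulated data with independent noise for each gene, which leaves out the variation that genes share between these libraries. Low genes and correlations were tested by exact permutation in scipy 1.17.1. The members, lists and contrasts were chosen with earlier results of these data known. Named genes were the members, the 4 most abundant genes of each list, list genes past the threshold, and the 5 highest and 5 lowest r to Ccl5. Other named genes were chosen after their values were seen. Alternatives were another pseudocount, other minimums, median-of-ratios factors, quantile normalization, GC correction (GC known for 95.6% of tested genes), fits of 2 groups, a replicate block and leaving out libraries. Some genes are not reported here.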

Additional observations from a re-analysis of the deposited data

How the results depend on the processing

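Ccl5 kept its direction under every alternative run, and its Blebb. differences are a description, since Ccl5 was chosen by them. Other minimums, a fit without the trend, fits of 2 groups and a replicate block cannot change a difference of group means. The Ccl5 difference on the log2 scale lay between 1.22 and 1.496 in Blebb. against MS and between 1.06 and 1.15 in Blebb. against CTL. In MS against CTL it lay between -0.35 and -0.12. With 1 library left out it lay between 1.25 (without MS replicate 3) and 1.53, between 0.98 and 1.22, and between -0.42 and -0.16. The difference of Cxcl10 in MS against CTL turned to -0.063 without the 3 libraries with high Ddit3 and ranged from -0.383 (without CTL replicate 1) to 0.641 (without CTL replicate 3). That of Csf1, which was near 0, turned to 0.0030 with a pseudocount of 0.1, to 0.0060 with median-of-ratios factors and to 0.0728 with the GC trend removed, and ranged from -0.214 (without CTL replicate 1) to 0.161 (without CTL replicate 3). In Blebb. against MS, Csf1 turned to -0.058 with the GC trend removed and ranged from -0.086 (without MS replicate 3) to 0.14 with 1 library left out, and in Blebb. against CTL from -0.17 (without CTL replicate 1) to 0.21. The correlation of Cxcl10 and Csf1 fell below significance at 0.844 without the 2 farthest libraries and at 0.549 without the 3 libraries, with fewer libraries in each. With 1 library left out, 0 to 1 genes were called in MS against CTL and in Blebb. against MS, the 1 being found without MS replicate 2. No list gene was called in either comparison, and no gene of the set was called in MS against CTL. Genes at an unadjusted p under 0.05 numbered 11 to 183 in MS against CTL, 62 to 382 in Blebb. against MS and 7 to 183 in Blebb. against CTL over the other alternatives, the highest without a minimum, and 7 (without MS replicate 1) to 115 (without MS replicate 2), 34 (without MS replicate 1) to 934 (without Blebb. replicate 3) and 7 (without Blebb. replicate 1) to 94 (without Blebb. replicate 3) with 1 library left out. The cause was not tested. A minimum mean of 5 FPKM removed Cxcl10.

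Whether the replicate numbers pair the samples was not settled. Of 9 same-numbered pairs, 2 had deviations that correlated above 0.1, and 2 of 9 libraries were closest to their own number. The r of these pairs ran from -0.785 to 0.835. Deviations from the mean of 3 libraries sum to 0, which forces some negative values, so this check cannot exclude pairing. With the replicate number as a block, 0 genes were called in the 3 comparisons. The Ccl5 difference in Blebb. against MS was 1.40, which a block cannot change, since each group holds the same replicate numbers. Unknown depth limits what can be said of Ccl2, Ccl7, Cxcl1 and Cxcl16.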
